A study of Mus musculus with 30 samples.

Results

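Transcripts of the mouse mitochondrial genome were followed across 30 libraries of cardiac myocyte RNA. The members were all rows of the deposited gene table whose symbol starts with mt-. This rule uses the symbol alone, though the set was chosen with earlier results of these data known. This gave 37 of 52550 genes: 13 mRNAs, 2 rRNAs and 22 tRNAs. Together they took 19.6% of the 522639331 counts in the table.

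The mitochondrial genome is a small circle that is transcribed from both strands into long precursors, which are cut at the tRNAs lying between most of the other genes. Its mRNAs encode core subunits of complexes I, III and IV of the respiratory chain and of the ATP synthase, complex V, and its rRNAs and tRNAs serve the ribosomes that translate them. Cardiac myocytes are densely packed with mitochondria, and the remaining subunits of these complexes are encoded in the nucleus.

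There were 6 groups of 5 libraries each. Heterozygotes had the genotype Myh6-Cre:DspW/F and are described by the series title as haplo-insufficient for desmoplakin, the protein that ties desmosomes to intermediate filaments. The Myh6 promoter restricts Cre expression to cardiac myocytes. Each genotype was sampled at age 6 months following endurance treadmill exercise for 3 months, at the same age under regular activity, and at age 3 months under regular activity. Whether wild types also carry Cre is not stated, and effects of Cre itself cannot be told apart from those of the Dsp allele. The labels also do not say whether replicates are separate animals, so p-values measure the spread between these samples, which may be technical.

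Libraries held 11232143 to 23710331 counts, and the 95% Wilson interval of the mitochondrial share was at most 0.0474 percentage points wide, which covers counting error only. None of the 10 ventricular myocyte markers was at 0 across a group, and their summed level was 73652 to 118736 counts-per-million (CPM, on scaled library sizes). Dsp was lower in heterozygotes than in wild type after exercise (log2 fold change -0.88, SE 0.193, edgeR quasi-likelihood test, adjusted p = 0.0287), and its log2 fold changes of -0.33 at 6 months (adjusted p = 0.657) and -0.50 at 3 months (adjusted p = 0.312) did not pass the test. The library labelled heterozygote 3 at 3 months had 1126 CPM of Dsp, against 752 to 1299 CPM in wild type of that age. Of the 23 spike-in rows, 3 are filled in for libraries of age 3 months, 18 for those of age 6 months under regular activity (11 in wild type 5) and 0 for exercised ones. Age and exercise effects thus cannot be told apart from any separate handling of these sets, while genotypes were compared inside a set.

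Levels along the genome were uneven. Per kilobase of gene, averaged over all 30 libraries, mt-Co1, the catalytic subunit of cytochrome c oxidase (complex IV), stood at 77620 CPM per kb, mt-Rnr2, the large ribosomal RNA, at 19717, mt-Nd1 of complex I at 18293 and mt-Cytb, the cytochrome b of complex III, at 10777. mt-Atp8 was at 153 CPM per kb and mt-Nd4l at 81.3 CPM per kb, a level that is uncertain because its nuclear copy drew more counts. The small ribosomal RNA mt-Rnr1 was at 2701 CPM per kb. mt-Co1 alone took 59.2% of all mitochondrial counts. Reads that match both a gene and a nuclear copy may have been left uncounted, so these levels and this share may differ from RNA abundance. On the mitochondrial chromosome (GRCm38, GENCODE M21), mt-Rnr1 lies at 70 to 1024, mt-Rnr2 at 1094 to 2675, mt-Nd1 at 2751 to 3707 and mt-Co1 at 5328 to 6872. mt-Nd6, a complex I subunit at 13552 to 14070, is the single mRNA on the minus strand, and the 12 other mRNAs and both rRNAs are on the plus strand. mt-Atp8 (7766 to 7969) and mt-Atp6 (7927 to 8607), subunits of the ATP synthase, overlap each other, as do mt-Nd4l (9877 to 10173) and mt-Nd4 (10167 to 11544). How reads in such overlaps were assigned is not given in the sources used here.

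Some of these genes have a near-identical copy in the nuclear genome. Of the 37 members, 7 have an annotated copy at least 99% identical in a stretch of chromosome 1 (24611535 to 24616197, minus strand, GRCm38). For every 100 counts on mt-Atp6 its copy Gm10925 had 177, for mt-Nd3 Gm28438 had 130 and for mt-Nd4l Gm10222 had 128. Per 100 counts, the copy of mt-Co3 had 71.0, that of mt-Co2 68.8, that of mt-Nd4 2.13 and that of mt-Co1 1.11. The copy of mt-Nd4 aligns with 63.6% of that gene and the copy of mt-Co1 with 31.3%. Gm13340 on chromosome 2 aligns with the whole of mt-Co1 at 97.6% identity and had 0.76 counts per 100. The level of mt-Atp6, mt-Nd3, mt-Nd4l, mt-Co2 and mt-Co3 is therefore uncertain, since reads could have been split between gene and copy or left uncounted. The search covered annotated transcripts only, so an unannotated copy of another member, such as mt-Atp8 between mt-Co2 and mt-Atp6, would have been missed. The following windows show how little separates gene and copy. The capital marks the base that differs, as A1066T for mt-Co1 and T3C for mt-Nd3, with positions counted from 1 at the 5′ end of the gene; the sequences are from GENCODE M21 on GRCm38.
mt-Co1: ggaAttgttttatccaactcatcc
Gm29216: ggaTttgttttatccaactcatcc
mt-Nd3: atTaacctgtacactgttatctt
Gm28438: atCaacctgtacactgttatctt

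**Figure D1:**
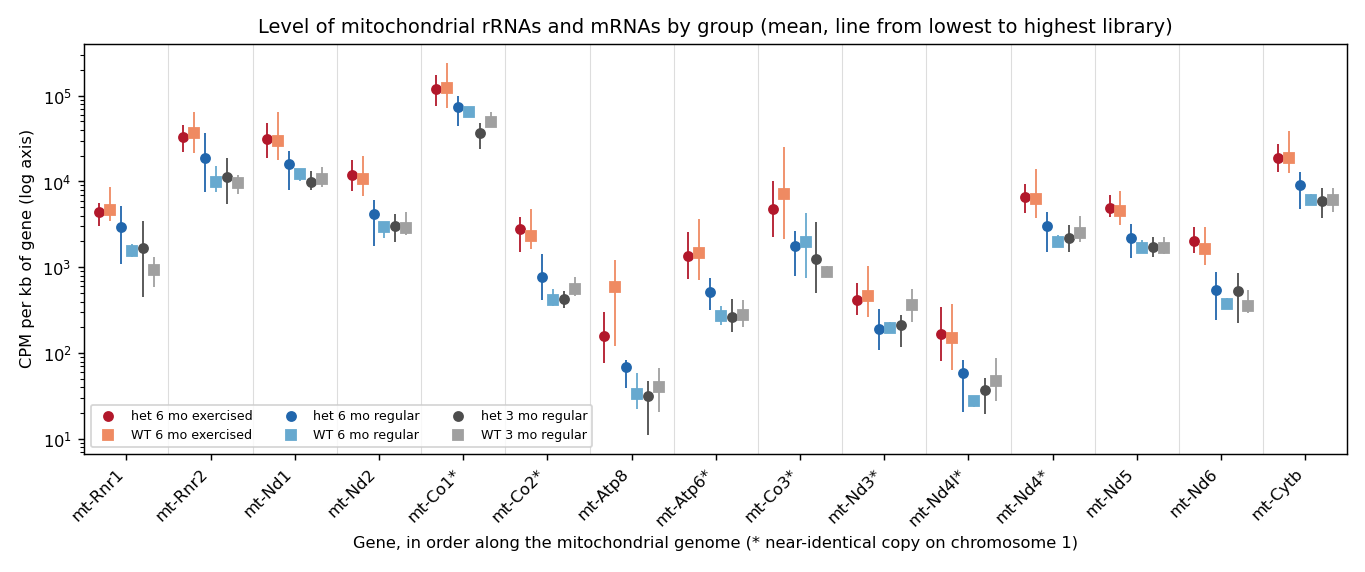
Level of each mitochondrial rRNA and mRNA in CPM per kb of gene (log axis), in order along the genome, by group; symbols are means of 5 libraries and lines run from the lowest to the highest library. mt-Co1 was highest at an average of 77620 CPM per kb over all libraries and mt-Nd4l stood at 81.3; asterisks mark the 7 genes with a near-identical copy on chromosome 1.

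Mitochondrial transcripts took a larger mean share of counts in the exercised groups than in the other 4. The share, in libraries 1 to 5, was 26.2%, 38.1%, 28.4%, 22.01% and 32.2% in exercised heterozygotes and 46.9%, 25.9%, 24.6%, 23.0% and 20.8% in exercised wild type. It was 16.6%, 11.7%, 25.7%, 18.8% and 26.7% in heterozygotes and 17.6%, 13.3%, 16.5%, 14.6% and 16.1% in wild type at 6 months with regular activity. At 3 months it was 9.54%, 13.7%, 12.8%, 8.90% and 9.95% in heterozygotes and 15.4%, 11.9%, 11.8%, 11.4% and 10.9% in wild type. All 5 exercised wild types lay above all 5 wild types with regular activity, and the first of them stood far above the rest. Without that library the difference with exercise in wild type was 7.97 percentage points, against 12.6 with it. In heterozygotes the exercised and regular libraries overlapped, since heterozygotes 3 and 5 with regular activity reached the range of the exercised ones, and the means differed by 9.48 points. Small nuclear, nucleolar and other short RNA classes were lower in the exercised groups, at 1.15% ± 0.116 of counts in exercised heterozygotes and 2.30% ± 0.384 in heterozygotes with regular activity, and at 1.06% ± 0.260 in exercised wild type and 2.15% ± 0.203 in wild type with regular activity (SD, n = 5 each). The groups did not overlap, and the part of these RNAs in the exercise results was not tested. A share of bulk RNA cannot tell more cells of a type from more of this RNA per cell. A sum over the members is a description, so no p is given for it.

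The classes are given apart. The mRNA share was 24.4% ± 5.40 in exercised heterozygotes and 16.5% ± 4.64 in heterozygotes with regular activity, and 23.0% ± 9.20 in exercised wild type and 13.8% ± 1.30 in wild type with regular activity (SD, n = 5 each). The rRNA share was 5.02% ± 0.876 in exercised heterozygotes and 3.38% ± 1.85 in heterozygotes with regular activity (SD, n = 5), and 5.27% ± 1.42 in exercised wild type and 1.79% ± 0.489 in wild type with regular activity. The tRNAs together took 31.2 ± 7.12 counts-per-million of all gene counts, unscaled, in exercised heterozygotes and 22.3 ± 6.04 in heterozygotes with regular activity, and 31.8 ± 10.1 in exercised wild type and 26.8 ± 7.42 in wild type with regular activity. At 3 months the mRNA share was 8.84% ± 1.65 in heterozygotes and 10.7% ± 1.66 in wild type, and the rRNA share 2.05% ± 0.998 in heterozygotes and 1.61% ± 0.296 in wild type (SD, n = 5 each). In heterozygotes at 3 months the tRNA sum was 3122, 2037, 33.7, 65.7 and 76.1 counts-per-million, against 51.9, 50.7, 65.0, 99.8 and 72.9 in wild type of that age. Heterozygotes 1 and 2 at 3 months thus stood apart from the other 28 libraries, none of which exceeded 99.8.

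The composition of the mitochondrial RNA also differed. mt-Co1 made up 56.2%, 56.2%, 54.5%, 54.8% and 57.0% of mitochondrial counts in exercised heterozygotes and 63.4%, 67.02%, 60.4%, 63.0% and 56.1% in heterozygotes with regular activity. In wild type it made up 55.7%, 57.5%, 54.8%, 54.8% and 54.6% after exercise and 65.7%, 69.3%, 69.4%, 70.1% and 67.6% with regular activity. Every exercised wild type was below every wild type with regular activity, and in heterozygotes the ranges met at heterozygote 5 with regular activity. In that library the rRNAs made up 23.2% of mitochondrial counts, against 12.7% to 16.4% in the other 4 of its group. Nuclear rRNA took 0.511% of its gene counts, against 0.0216% to 0.0791% in the other 4. The part of this difference in the values of that library was not tested.

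**Figure D2:**
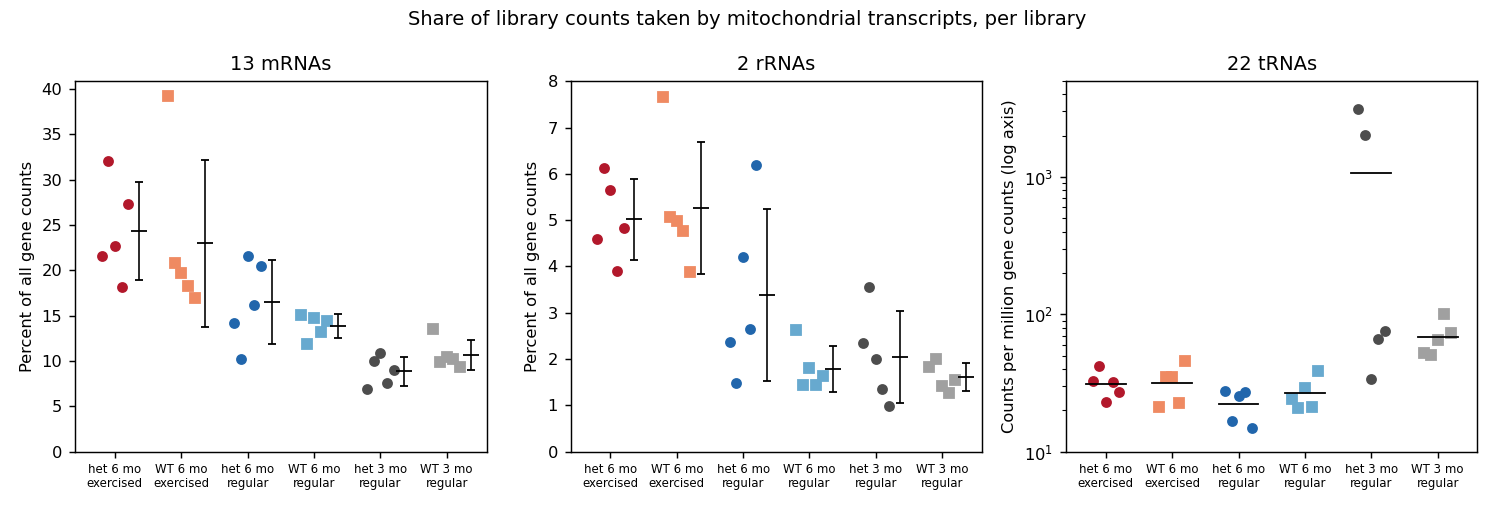
Share of each library's gene counts taken by the 13 mRNAs, the 2 rRNAs (both in percent) and the 22 tRNAs (counts-per-million, log axis), one symbol per library; black marks are group means, with SD bars for mRNAs and rRNAs. Exercised wild type 1 reached 39.2% in mRNAs, and heterozygotes 1 and 2 at 3 months reached 3122 and 2037 counts-per-million in tRNAs.

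Exercise in wild type was the comparison with the most members called. Of the 37 members, 26 passed the filter on low counts and were tested: all 13 mRNAs, both rRNAs and 11 tRNAs. At 6 months, 15 of these 26 rose after exercise and 0 fell in wild type (edgeR's quasi-likelihood test, adjusted p under 0.05 over all 15587 genes tested), where 4.64% of all genes tested rose and 5.05% fell. These were 12 of 13 mRNAs, both rRNAs and mt-Tp. In 14 of the 26 all exercised wild types lay above all with regular activity, which held for 5.04% of all genes tested. In heterozygotes 10 members rose, 9 mRNAs and mt-Tp, and mt-Tv fell, where 5.34% of all genes rose and 3.48% fell, and the exercised libraries lay above all others in 8 members, against 5.1% of all genes. The median log2 fold change of the 13 mRNAs was 1.18 in heterozygotes and 1.87 in wild type, beside medians of -0.00 and 0.01 over all genes tested.

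Complex I is the entry point of electrons from NADH, and 7 of its subunits are encoded here. mt-Nd2 had 9972, 18439, 10549, 7933 and 14813 CPM in exercised heterozygotes 1 to 5, against 3516, 1825, 5957, 4118 and 6345 CPM with regular activity. In wild type it had 20708, 10007, 10202, 7974 and 6975 CPM after exercise, against 3413, 2275, 2841, 3257 and 3364 CPM. In both genotypes each exercised library was above each one with regular activity. mt-Nd2 rose 2.84-fold in heterozygotes (log2 fold change 1.504, SE 0.311, adjusted p = 0.00278, edgeR) and 3.69-fold in wild type (1.88, SE 0.315, edgeR adjusted p = 0.000312).

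mt-Nd6, the minus-strand mRNA, had 945.8, 1528, 950.8, 766.6 and 1097 CPM in exercised heterozygotes, against 270.0, 126.1, 455.6, 265.5 and 301.8 CPM with regular activity. Wild-type libraries had 1519, 811.5, 585.3, 557.5 and 791.7 CPM after exercise, against 228.2, 193.9, 180.8, 173.8 and 205.4 CPM. The groups did not overlap in either genotype, and mt-Nd6 rose 3.73-fold in heterozygotes (1.90, SE 0.333, edgeR adjusted p = 0.000658) and 4.34-fold in wild type (2.12, SE 0.335, edgeR adjusted p = 0.000201). mt-Nd5, its plus-strand neighbour, also rose without overlap, 2.25-fold in heterozygotes (1.17, SE 0.229, edgeR adjusted p = 0.00136) and 2.70-fold in wild type (1.43, SE 0.23, edgeR adjusted p = 0.000153). mt-Nd4 rose 2.19-fold in heterozygotes (edgeR adjusted p = 0.0306) and 3.17-fold in wild type (0.00202), and mt-Nd4l 2.81-fold in heterozygotes (0.0384) and 5.31-fold in wild type (0.00175). mt-Nd3 rose 2.18-fold in heterozygotes (edgeR adjusted p = 0.0468) and 2.35-fold in wild type (0.0269). mt-Nd1 rose 2.41-fold in wild type (1.27, SE 0.309, edgeR adjusted p = 0.00879), and its log2 fold change of 0.95 in heterozygotes did not pass the test (adjusted p = 0.0529). Without exercised wild type 1, the mt-Nd1 value was 0.77 and that of mt-Nd3 0.70, neither called, and that of mt-Nd4l was 1.74 instead of 2.41. The wild-type call of mt-Nd3 was lost in 5 of the 10 fits that left out 1 library, also without wild type 2, 3, 4 or 5 with regular activity.

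mt-Cytb of complex III, which passes electrons on to cytochrome c, had 18907, 30928, 19560, 14829 and 22799 CPM in exercised heterozygotes, against 8792, 5503, 14226, 9181 and 14697 CPM with regular activity. Among wild types it had 44026, 16626, 17019, 15274 and 14377 CPM after exercise, against 8259, 6115, 6673, 6547 and 7366 CPM. The groups did not overlap, though in heterozygotes the lowest exercised and the highest regular library were close. mt-Cytb rose 2.04-fold in heterozygotes (1.03, SE 0.293, edgeR adjusted p = 0.0262) and 3.07-fold in wild type (1.62, SE 0.297, edgeR adjusted p = 0.0008).

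Complex IV, cytochrome c oxidase, has 3 mitochondrial subunits. mt-Co2, which holds the copper centre that accepts electrons from cytochrome c, had 2412, 2635, 1332, 1028 and 2140 CPM in exercised heterozygotes, against 383.0, 282.2, 469.8, 506.9 and 972.8 CPM with regular activity. Its wild-type levels were 3258, 1282, 1108, 1150 and 1229 CPM after exercise, against 380.3, 245.0, 262.8, 267.3 and 267.4 CPM. It rose without overlap 3.65-fold in heterozygotes (1.87, SE 0.321, edgeR adjusted p = 0.000527) and 5.64-fold in wild type (2.496, SE 0.329, edgeR adjusted p = 2.66e-05).

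mt-Co1 had 162654, 267661, 170678, 115826 and 206663 CPM in exercised heterozygotes, against 93274, 68964, 147289, 106960 and 153892 CPM with regular activity. In the wild-type groups it had 374345, 168671, 147474, 133768 and 111486 CPM after exercise, against 114267, 86184, 103636, 97846 and 101044 CPM. The groups overlapped in both genotypes, and exercised wild type 1 stood far above every other wild type. mt-Co1 rose 1.86-fold in wild type (0.90, SE 0.263, edgeR adjusted p = 0.0270), with a value of 0.48 and no call without that library, and no call without wild type 2, 3, 4 or 5 with regular activity. In heterozygotes its log2 fold change of 0.70 (SE 0.262) did not pass the test (edgeR adjusted p = 0.0980). mt-Co3 had log2 fold changes of 1.41 in heterozygotes (edgeR adjusted p = 0.216) and 1.87 in wild type (0.0875), neither called. With the counts of its nuclear copy added, an alternative chosen after seeing the data, the wild-type value was 1.99 (SE 0.514, edgeR adjusted p = 0.0140).

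Both ATP synthase subunits rose in wild type, and mt-Atp8 had the largest fold change of the 26 tested members there. mt-Atp8 had 251.1, 143.1, 60.7, 114.9 and 24.4 CPM in exercised wild type, against 11.9, 4.57, 5.02, 5.14 and 7.36 CPM with regular activity. In heterozygotes it had 31.2, 61.0, 23.6, 15.5 and 30.3 CPM after exercise, against 17.1, 8.13, 16.2, 17.0 and 12.7 CPM. The wild-type groups did not overlap and the heterozygous groups met at exercised heterozygote 4. mt-Atp8 rose 17.5-fold in wild type (4.13, SE 0.524, edgeR adjusted p = 2.32e-05), and its log2 fold change of 1.18 (SE 0.471) in heterozygotes did not pass the test (edgeR adjusted p = 0.125). mt-Atp6 rose 2.63-fold in heterozygotes (1.39, SE 0.402, edgeR adjusted p = 0.0295) and 5.46-fold in wild type (2.45, SE 0.416, edgeR adjusted p = 0.000431), with a log2 fold change of 1.77 in wild type without exercised wild type 1. mt-Atp8 has no annotated near-identical copy, though it overlaps mt-Atp6 and lies 3′ of mt-Co2 and mt-Tk. On chromosome 1 the copy of mt-Atp6 spans 24613974 to 24614651 and that of mt-Co2 24614885 to 24615565. Only annotated transcripts were searched, so the stretch between these copies was not, and the level of mt-Atp8 is uncertain too.

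The ribosomal RNAs rose in wild type. mt-Rnr2 had 101608, 54080, 51006, 46908 and 34215 CPM in exercised wild type, against 24042, 11981, 15052, 12388 and 13692 CPM with regular activity. In heterozygotes it had 45761, 71816, 57023, 34616 and 50960 CPM after exercise, against 18494, 11974, 36586, 21734 and 58626 CPM. The wild-type groups did not overlap, while heterozygotes 3 and 5 with regular activity reached exercised levels. In heterozygote 5 nuclear rRNA took 0.511% of gene counts, against 0.0381% in heterozygote 3, and its part was not tested. mt-Rnr2 rose 3.73-fold (1.90, SE 0.372, edgeR adjusted p = 0.00167) and mt-Rnr1 3.01-fold (1.59, SE 0.422, edgeR adjusted p = 0.0165) in wild type, and in heterozygotes the log2 fold changes of 0.82 and 0.61 did not pass the test (adjusted p = 0.173 and 0.427). mt-Rnr1 lost its wild-type call without exercised wild type 1. The labels say that ribosomal RNA was depleted, without saying whether mitochondrial rRNA was a target, so rRNA levels rest on an unstated depletion.

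**Figure D3:**
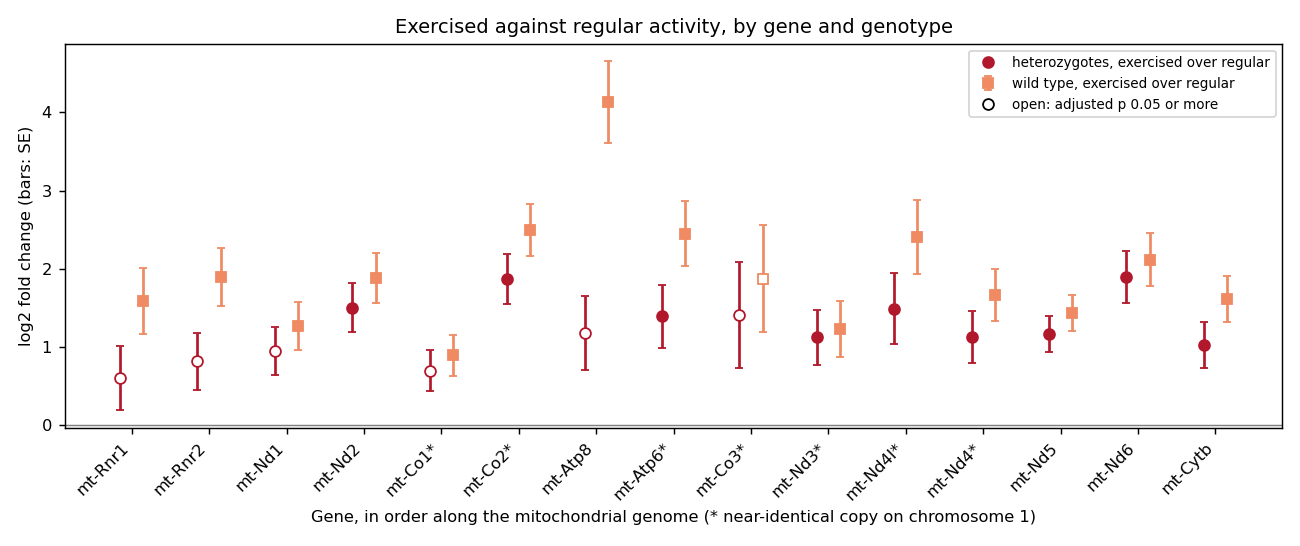
Log2 fold change of exercised over regular activity for each mitochondrial rRNA and mRNA, in heterozygotes and wild type; bars are SE and open symbols have an adjusted p of 0.05 or more. All 13 mRNAs lie above 0 in both genotypes, from 0.70 to 1.90 in heterozygotes and from 0.90 to 4.13 in wild type.

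Calls in heterozygotes depended on single libraries more than those in wild type. Leaving out 1 library at a time gave 11 to 15 calls in wild type, with the fewest without exercised wild type 1. In heterozygotes it gave 5 to 11, with 5 calls without heterozygote 1 with regular activity or exercised heterozygote 2, 6 without exercised heterozygote 1 or 5, and 7 without heterozygote 2 or 4 with regular activity. mt-Nd2, mt-Co2, mt-Nd5, mt-Nd6 and mt-Tp were called in all 10 of these fits. The heterozygous calls of mt-Atp6, mt-Nd4 and mt-Cytb were lost in 6 of the 10, that of mt-Nd3 in 8 and that of mt-Nd4l in 9. Exercised wild type 1 was highest in its group for 13 of 13 mRNAs, and exercised heterozygote 2 in its group for 12 of 13. With both left out, 12 members were called in wild type and 9 in heterozygotes, 8 of them among the 11 above. Fibroblast markers summed to 98.2 to 729 CPM in exercised heterozygotes and 335 to 491 CPM in heterozygotes with regular activity, and to 88.8 to 307 and 175 to 202 CPM in exercised and regular wild type, with no marker at 0 in a whole group. Macrophage markers summed to 16.8 to 129 CPM and 51.9 to 104 CPM in exercised and regular heterozygotes, and to 11.8 to 55.7 and 17.7 to 33.0 CPM in wild type. Endothelial markers summed to 196 to 438 CPM and 367 to 752 CPM in exercised and regular heterozygotes, and to 263 to 1186 and 333 to 468 CPM in wild type. Their part in the exercise results was not tested.

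Ratios of neighbouring genes within a library do not depend on library scaling. Of the 21 ratio tests, 0 passed the adjustment, while 4 had an unadjusted p under 0.05 in the two-sided exact permutation test, where 5 against 5 cannot go below 0.00794. For every 100 counts of mt-Nd5, the minus-strand mt-Nd6 had 12.4, 12.2, 11.1, 10.8 and 11.7 counts in exercised heterozygotes, against 7.94, 5.35, 7.92, 7.29 and 6.10 with regular activity. In wild type it had 10.6, 10.2, 8.30, 8.64 and 14.1 after exercise, against 6.00, 6.83, 6.54, 6.46 and 6.33. In both genotypes every exercised library was above every one with regular activity. The mean log2 ratio differed by 0.77 in heterozygotes and by 0.66 in wild type, each at p = 0.00794 in the exact permutation test and 0.0556 after Benjamini-Hochberg adjustment over 21 tests. mt-Nd5 and mt-Nd6 overlap at their 3′ ends on opposite strands, and where reads over the overlap were counted depends on the strand setting. That setting is not given in the sources used here. If strands were not told apart in counting, plus-strand reads over the whole of mt-Nd6 were counted to it as well. Its level and this ratio then need not be those of minus-strand RNA.

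mt-Nd1 follows mt-Rnr2 on the plus strand, with mt-Tl1 between them. For every 100 counts of mt-Rnr2, mt-Nd1 had 60.6, 38.4, 41.7, 44.7 and 50.1 counts in exercised wild type, against 53.2, 80.8, 82.1, 93.1 and 90.5 with regular activity. The ranges crossed through library 1 of each group, the highest of the exercised and the lowest of those with regular activity (log2 difference -0.76, exact permutation p = 0.0159, adjusted p = 0.0833). In heterozygotes the difference was -0.03 (p = 0.944, exact permutation test). With age in wild type, mt-Rnr1 per 100 counts of mt-Rnr2 was 7.42, 12.1, 8.31, 10.8 and 11.3 at 6 months, against 5.79, 6.60, 6.28, 4.98 and 5.24 at 3 months. The groups did not overlap (log2 difference 0.77, exact permutation p = 0.00794, adjusted p = 0.0556), and in heterozygotes the difference was 0.31 (p = 0.286, exact permutation test).

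**Figure D4:**
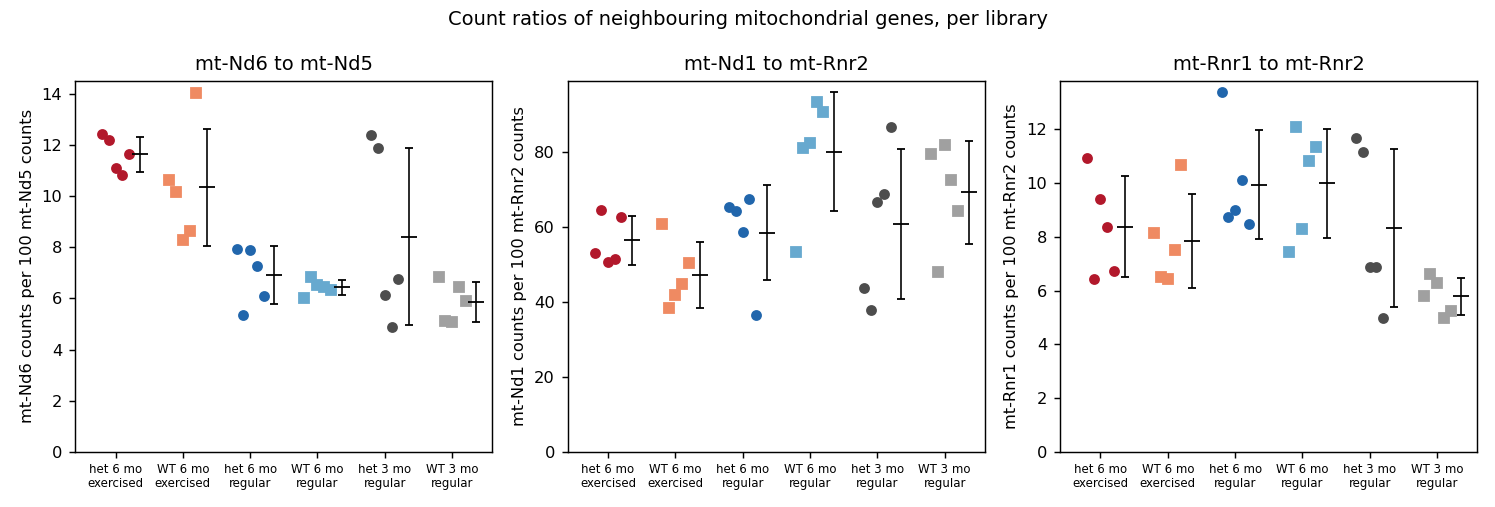
Counts of mt-Nd6 per 100 counts of mt-Nd5, of mt-Nd1 per 100 of mt-Rnr2 and of mt-Rnr1 per 100 of mt-Rnr2 in each library, with group means and SD in black. For mt-Nd6 the exercised libraries lie between 8.30 and 14.1 and the 6-month libraries with regular activity between 5.35 and 7.94.

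Between genotypes, edgeR's quasi-likelihood test on all libraries called no mitochondrial mRNA or rRNA at either age or after exercise, while mt-Atp8 was called among exercised mice by DESeq2 and by edgeR without exercised wild type 5. At 6 months with regular activity 0 of 26 members were called by edgeR's quasi-likelihood test, where 0.135% of all genes tested were called in either direction. DESeq2 called 0. In the edgeR test 6 members had an unadjusted p under 0.05, as had 1370 of the 15587 genes tested. The log2 fold change was positive for 11 of 13 mRNAs and its median was 0.53, beside a median of -0.00 over all genes tested. mt-Co2 had the smallest adjusted p, with 383.0, 282.2, 469.8, 506.9 and 972.8 CPM in heterozygotes, against 380.3, 245.0, 262.8, 267.3 and 267.4 CPM in wild type (0.88, SE 0.314, edgeR adjusted p = 0.385). Heterozygotes 1, 3, 4 and 5 were above all wild types for mt-Co2, and heterozygote 2 was within their range. Heterozygote 2 was lowest in its group for 11 of 13 mRNAs, while heterozygotes 3 and 5 were highest for 6 and 5. With heterozygotes 3 and 5 left out, the median log2 fold change over the 26 members was 0.02, against 0.47 with them. Fibroblast markers summed to 335 to 491 CPM in these heterozygotes and 175 to 202 CPM in wild type, and macrophage markers to 51.9 to 104 CPM and 17.7 to 33.0 CPM. Their part in the result was not tested.

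Among exercised mice 0 of 26 members were called by edgeR's quasi-likelihood test, where 0.404% of all genes tested were called, and DESeq2 called 1, mt-Atp8. In the edgeR test 1 member had an unadjusted p under 0.05, as had 1525 of the 15587 genes tested. mt-Atp8 had 31.2, 61.0, 23.6, 15.5 and 30.3 CPM in exercised heterozygotes, against 251.1, 143.1, 60.7, 114.9 and 24.4 CPM in exercised wild type. The groups overlapped, since wild type 5 lay among the heterozygotes and wild type 3 just under the highest of them (-1.88, SE 0.472, edgeR adjusted p = 0.0891), and mt-Atp8 was called when wild type 5 was left out. The remaining 12 mRNAs had log2 fold changes from -0.59 to 0.31. The mean mitochondrial share was 29.4% ± 6.12 in exercised heterozygotes and 28.3% ± 10.6 in exercised wild type (SD, n = 5), a difference of 1.11 points that turned to -1.08 without exercised heterozygote 2 and reached 5.77 without exercised wild type 1.

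The test of whether exercise acted differently by genotype called 0 of 26 members with edgeR's quasi-likelihood test, where 0.0128% of all genes tested were called. The difference was negative for all 13 mRNAs, with a median of -0.46. Exercised wild type 1 was highest in its group for 13 of 13 mRNAs. Without it the wild-type exercise value fell below the heterozygous one for mt-Nd1, mt-Co1 and mt-Nd3, and stayed above it for mt-Atp8. The shared sign thus rests in part on that library. An unadjusted p under 0.05 was found for 765 of the 15587 genes tested and for 2 members. The 2 members were mt-Atp8 (-2.94, SE 0.674, edgeR adjusted p = 0.311) and mt-Rnr2 (-1.08, SE 0.51, edgeR adjusted p = 0.999). DESeq2 called 1 member, mt-Atp8. Both exercise comparisons and this test use the same groups, so they are not separate evidence.

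At 3 months 1 of 26 members was called in heterozygotes against wild type, mt-Tm, where 0.192% of all genes tested were called. Of the mRNAs 9 of 13 were lower, with a median log2 fold change of -0.09 and a smallest adjusted p of 0.419, that of mt-Nd3 (-0.77, SE 0.353, edgeR's quasi-likelihood test). At that age mt-Co1 had 36832, 58550, 74191, 49131 and 62422 CPM in heterozygotes, against 100186, 73963, 71787, 72040 and 65998 CPM in wild type. Heterozygotes 1, 2, 4 and 5 were below every wild type and heterozygote 3, the library with Dsp within the wild-type range, was above 4 of them (-0.45, SE 0.261, edgeR adjusted p = 0.545).

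With age, no mitochondrial mRNA or rRNA was called in wild type. Of 26 members 1 rose at 6 months against 3 months and 4 fell in wild type (edgeR's quasi-likelihood test), all of them tRNAs, where 0.398% of all genes tested rose and 0.462% fell. Of these 5, mt-Tk, mt-Tg and mt-Tr entered the test only through the 3-month groups and mt-Ty only through 6-month groups, so the count supports no direction. In 5 members all 6-month wild types were below all 3-month wild types, against 2.17% of all genes tested. As mt-Tk, mt-Tg and mt-Tr were among these 5, this count supports no direction either. The median log2 fold change of the 13 mRNAs was -0.00 in wild type. In heterozygotes 2 members rose and 5 fell, where 1.46% of all genes rose and 1.96% fell. Below without overlap lay 4 members, against 2.84% of all genes. The calls again included mt-Ty and mt-Tk, and the 4 included mt-Tk and mt-Tg, so neither count supports a direction. Of the heterozygotes' mRNAs 12 of 13 were higher at 6 months, with a median of 0.65, and mt-Co1 was the one called. It had 93274, 68964, 147289, 106960 and 153892 CPM at 6 months, against 36832, 58550, 74191, 49131 and 62422 CPM at 3 months. Heterozygote 2 at 6 months lay within the 3-month range and the rest did not (1.02, SE 0.264, edgeR adjusted p = 0.0287). The call was lost without heterozygote 1 or 4 at 3 months or heterozygote 3 or 5 at 6 months. Between the same groups, 4 of 8 fibroblast, 4 of 8 macrophage and 3 of 8 endothelial markers rose and 2 of 10 ventricular myocyte markers fell, with fibroblast sums of 335 to 491 CPM at 6 months and 110 to 185 CPM at 3 months, and their part in the result was not tested. The test of a different age effect by genotype called 0 of 26 members with edgeR, and 0% of all genes tested, while DESeq2 called 2, mt-Tm and mt-Tc. In the edgeR test 5 members had an unadjusted p under 0.05, as had 1253 of the 15587 genes tested.

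Mitochondrial tRNAs carry amino acids to the mitochondrial ribosome, and the 22 are named by the amino acid they carry. Each gene is 59 to 75 bases long, and reads from a mature tRNA cannot be told from those of an uncut precursor. If strands were not told apart in counting, reads of the opposite strand were included too. Together they had 114180 counts over 30 libraries, of which mt-Tm had 92817. The 8 that were called in some comparison are printed from the 5′ end in DNA letters from GENCODE M21 (GRCm38), on the strand that encodes them, with the anticodon in capitals; they carry methionine, cysteine, valine, lysine, glycine, arginine, tyrosine and proline in this order.
mt-Tm: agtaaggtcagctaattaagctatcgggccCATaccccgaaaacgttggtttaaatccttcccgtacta
mt-Tc: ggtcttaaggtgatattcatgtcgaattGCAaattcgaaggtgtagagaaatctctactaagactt
mt-Tv: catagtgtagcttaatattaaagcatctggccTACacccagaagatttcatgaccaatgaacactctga
mt-Tk: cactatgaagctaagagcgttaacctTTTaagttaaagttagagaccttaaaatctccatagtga
mt-Tg: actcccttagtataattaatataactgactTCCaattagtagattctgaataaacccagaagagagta
mt-Tr: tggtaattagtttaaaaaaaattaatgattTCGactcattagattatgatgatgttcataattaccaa
mt-Ty: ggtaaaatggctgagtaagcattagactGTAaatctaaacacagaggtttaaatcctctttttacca
mt-Tp: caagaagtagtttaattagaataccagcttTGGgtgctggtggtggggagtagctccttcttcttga

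mt-Tm (3845 to 3913), which carries methionine and so starts every mitochondrial protein, had 2547, 1723, 15.1, 23.1 and 23.9 CPM in heterozygotes 1 to 5 at 3 months, against 17.0, 15.7, 24.7, 31.6 and 29.2 CPM in wild type. Heterozygotes 1 and 2 were far above and the other 3 lay at or within the range of wild type, from just below its lowest library. Its call (5.196, SE 1.08, edgeR adjusted p = 0.0498) was lost without heterozygote 1 (4.24), without heterozygote 2 and without any single wild type, and without both heterozygotes the log2 fold change was -0.20 (edgeR adjusted p = 0.937). mt-Tc, on the minus strand, showed the same 2 libraries, with 159.1, 109.8, 4.72, 3.85 and 9.93 CPM in heterozygotes, against 1.81, 3.88, 1.03, 9.52 and 2.88 CPM in wild type (3.91, SE 0.853, edgeR adjusted p = 0.0529). mt-Tl1 had 11.496 and 12.2 CPM in heterozygotes 1 and 2 and 0.696 to 3.17 CPM in the other 8 libraries of that age. Small nuclear and nucleolar RNAs and other short RNA classes together took 5.29% and 5.27% of counts in heterozygotes 1 and 2, against 3.28% to 4.62% in the other 8. The part of this difference in the tRNA values was not tested.

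The plus-strand mt-Tv and mt-Tk were lower at 6 months than at 3 months in both genotypes. Small nuclear, nucleolar and other short RNA classes took 2.30% ± 0.384 of counts in heterozygotes at 6 months and 4.45% ± 0.797 at 3 months, and 2.15% ± 0.203 in wild type at 6 months and 3.97% ± 0.570 at 3 months (SD, n = 5 each). These shares did not overlap between ages in either genotype, and their part in the tRNA results was not tested. mt-Tv, which lies between both rRNAs (1025 to 1093), had 2.12, 0.327, 3.10, 0.837 and 2.74 CPM in heterozygotes at 6 months, against 60.9, 39.0, 4.98, 13.8 and 14.6 CPM at 3 months. Wild-type libraries had 1.66, 0.796, 0.824, 0.407 and 2.52 CPM at 6 months, against 21.1, 17.0, 22.9, 23.2 and 22.2 CPM. No 6-month library reached a 3-month one, and mt-Tv fell 14.9-fold in heterozygotes (-3.90, SE 0.572, edgeR adjusted p = 0.000222) and 17.1-fold in wild type (-4.10, SE 0.585, edgeR adjusted p = 0.000264).

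mt-Tk, between mt-Co2 and mt-Atp8 (7700 to 7764), had 0.296, 0.123, 0.388, 0.152 and 0.701 CPM in heterozygotes at 6 months, against 5.04, 5.10, 1.39, 10.4 and 6.34 CPM at 3 months. Among wild types it had 0.101, 0, 0.118, 0 and 0.678 CPM, against 4.10, 4.58, 5.04, 8.39 and 3.21 CPM. Both ages stood apart in each genotype, with log2 fold changes of -4.11 in heterozygotes (SE 0.699, edgeR adjusted p = 0.000544) and -4.76 in wild type (SE 0.738, edgeR adjusted p = 0.000307), and -6.29 in wild type without wild type 5 at 6 months. mt-Tg was at -2.86 (edgeR adjusted p = 0.0314) and mt-Tr at -3.19 (0.0385) in wild type, and at -3.53 and -3.80 without the same library. In heterozygotes their log2 fold changes of -1.94 and -2.44 did not pass the test (adjusted p = 0.0919 and 0.0704). mt-Tk, mt-Tg and mt-Tr passed the filter on low counts only through the 3-month groups, where they were high, so an age difference was built into their test and their p-values support nothing. mt-Tr was the tested gene with the fewest counts, 121 over all libraries. In wild type the call for mt-Tg was lost in 5 and that for mt-Tr in 8 of the 10 fits that left out 1 library. The count of calls with age in wild type was then 3 to 5, and it was 3 without wild type 3 or 5 at 3 months or wild type 2, 3 or 4 at 6 months.

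The minus-strand mt-Ty (5260 to 5326) was higher at 6 months in both genotypes. It had 1.10, 0.735, 2.00, 2.40 and 1.28 CPM in heterozygotes at 6 months, against 0, 0.0810, 0, 0 and 0.334 CPM at 3 months. Its wild-type levels were 1.41, 0.796, 1.96, 1.68 and 1.31 CPM, against 0.139, 0.0588, 0.286, 0.252 and 0.328 CPM. Neither genotype's age groups overlapped, with log2 fold changes of 4.33 in heterozygotes (SE 0.704, edgeR adjusted p = 0.000301) and 2.71 in wild type (SE 0.603, edgeR adjusted p = 0.0199). The heterozygous value rests on 5 counts at 3 months, 4 of them in heterozygote 5, and was 6.09 without that library, so its size is uncertain. mt-Ty reached the filter level in no 3-month library and in 19 of the 20 at 6 months, exercised ones included, so its test too gives no support. The wild-type call was lost without wild type 2 at 3 months. In heterozygotes mt-Tm (-6.87, edgeR adjusted p = 0.00119), mt-Tc (-4.17, 0.00725) and mt-Tp (-1.36, 0.0342) also fell with age, and none of the 3 was called without heterozygotes 1 and 2 at 3 months. Without heterozygote 1 alone mt-Tm was at -5.91 and mt-Tc at -3.33, both called, and mt-Tp was not called.

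With exercise, the minus-strand mt-Tp (15356 to 15422) rose in both genotypes. It had 17.9, 21.1, 12.2, 17.0 and 16.9 CPM in exercised heterozygotes, against 3.94, 2.70, 2.61, 4.07 and 2.16 CPM with regular activity. In the wild-type groups it had 6.59, 24.2, 16.5, 13.2 and 10.2 CPM after exercise, against 4.12, 5.22, 3.14, 3.56 and 5.62 CPM. The groups did not overlap, and mt-Tp rose 5.46-fold in heterozygotes (2.45, SE 0.368, edgeR adjusted p = 7.25e-05) and 3.27-fold in wild type (1.71, SE 0.358, edgeR adjusted p = 0.00241). Unlike the mRNAs, it was lowest in exercised wild type 1 among the exercised wild types. mt-Tn and mt-Tc, also on the minus strand, were above all regular-activity libraries in exercised heterozygotes without passing the test (edgeR adjusted p = 0.0819 and 0.346). mt-Tv fell in exercised heterozygotes (-2.62, SE 0.752, edgeR adjusted p = 0.0281), a call lost in 7 of the 10 fits that left out 1 library. Of the tested tRNAs, mt-Tl1, mt-Tn and mt-Tl2 were called in no comparison, and mt-Tl2 had 138 counts in all.

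The 11 tRNAs left out by the filter had 10 (mt-Ts1) to 81 (mt-Te) counts over all 30 libraries. mt-Td had 0 counts in wild type at 6 months and 37 at 3 months, at least 16.3-fold lower when 0 is read as up to 3 counts in the group as a whole. mt-Te had 11, 6, 0, 0 and 2 counts in heterozygotes at 3 months and 0 in every wild type of that age. mt-Tt had 1, 6, 0, 0 and 7 counts in exercised heterozygotes and 0 in every heterozygote with regular activity. mt-Tf had 0 counts in every exercised wild type and 7, 1, 1, 0 and 0 in wild type with regular activity. For mt-Te, mt-Tt and mt-Tf most of these counts came from 1 or 2 libraries, and no fold is given for them. Over all libraries mt-Th had 65 counts, mt-Tq 48, mt-Tw 34, mt-Ts2 33, mt-Ta 32 and mt-Ti 29, and no test was made of any of these 11.

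**Figure D5:**
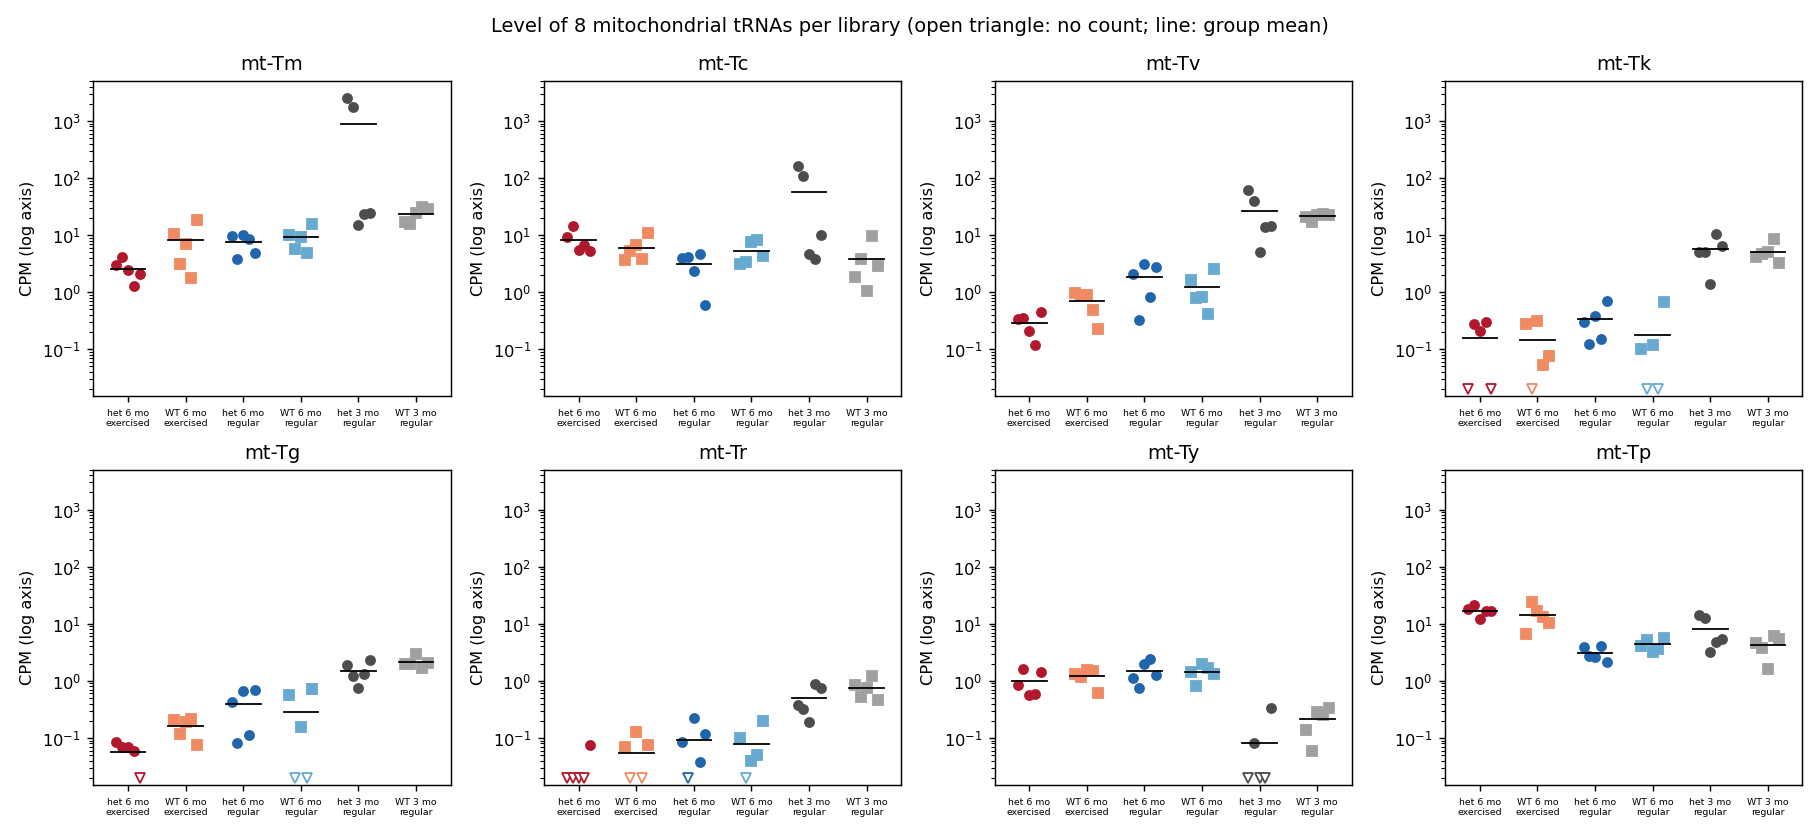
CPM (log axis) of the 8 tRNAs called in some comparison, one symbol per library; black lines are group means and open triangles at the bottom mark libraries without a count. mt-Tm reaches 2547 and 1723 CPM in 2 heterozygotes at 3 months, the group means of mt-Tv, mt-Tk, mt-Tg and mt-Tr are lower at 6 than at 3 months, and that of mt-Ty is higher.

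The nuclear genes that make and process these transcripts were described as a list. Of 65 listed genes for transcription, processing and decay of mitochondrial RNA, upkeep of its DNA and their nuclear regulators, 62 were tested. After exercise 6 rose and 3 fell in heterozygotes (median log2 fold change -0.01 over the list), where 5.34% of all genes rose and 3.48% fell. In wild type 6 rose and 2 fell (median -0.02), where 4.64% rose and 5.05% fell. Rexo2, an exonuclease that degrades short RNA in mitochondria, had 47.1 ± 5.38 CPM in exercised heterozygotes and 30.6 ± 6.15 CPM with regular activity (SD, n = 5; 0.63, SE 0.135, edgeR adjusted p = 0.00292). In wild type it had 42.2 ± 4.76 CPM after exercise and 26.5 ± 3.24 CPM with regular activity (0.67, SE 0.136, edgeR adjusted p = 0.00143). Rrm2b, a subunit of ribonucleotide reductase that supplies precursors for mitochondrial DNA, rose by 0.51 on the log2 scale in heterozygotes (edgeR adjusted p = 0.0119) and 0.58 in wild type (0.00432). Ppargc1a, the coactivator that drives mitochondrial biogenesis, had 219 ± 72.6 CPM in exercised heterozygotes and 123 ± 9.90 CPM with regular activity (0.83, edgeR adjusted p = 0.036). Wild-type libraries had 243 ± 117 CPM after exercise and 118 ± 37.4 CPM with regular activity (1.04, edgeR adjusted p = 0.00827). Esrrg, a nuclear receptor for mitochondrial genes, rose in both genotypes (0.64, edgeR adjusted p = 0.00179 in heterozygotes; 0.41, 0.0429 in wild type). Gtpbp3, which modifies mitochondrial tRNAs, fell in both (-0.56, edgeR adjusted p = 0.00739; -0.50, 0.0158). Esrra, another such receptor, fell in wild type (-0.46, edgeR adjusted p = 0.00888) and was at 0.01 in heterozygotes. Also called in exercised heterozygotes were Mtpap (0.39, edgeR adjusted p = 0.0216) and Gabpa (0.36, 0.0235), which rose, and Polg (-0.42, 0.0230), which fell.

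Polrmt, the mitochondrial RNA polymerase, fell in exercised heterozygotes, with 32.0 ± 4.12 CPM after exercise and 43.6 ± 3.24 CPM with regular activity (-0.44, SE 0.137, edgeR adjusted p = 0.0363), and was at -0.25 in wild type (adjusted p = 0.285). Tfam, which packages mitochondrial DNA and starts its transcription, was at -0.07 in heterozygotes and -0.09 in wild type, neither called (edgeR adjusted p = 0.834 and 0.793). With age 5 genes fell in heterozygotes: Esrra (-0.61), Elac2 (-0.48), which cuts the 3′ ends of tRNAs, Trmu (-0.70), which thiolates tRNAs, Polrmt (-0.53) and Lrpprc (-0.47), which stabilises mitochondrial mRNAs, at edgeR adjusted p from 0.0017 to 0.0343, where 1.96% of all genes fell. In wild type Mtpap, the mitochondrial poly(A) polymerase, rose by 0.45 (edgeR adjusted p = 0.0385) and the helicase gene Dhx30 fell by 0.36 (0.0408), where 0.398% of all genes rose and 0.462% fell. No listed gene was called between genotypes or in either interaction by edgeR's quasi-likelihood test.

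Among nuclear genes for subunits of the same complexes more fell than rose with exercise. Of 74 tested genes for complexes I, III, IV and V, 1 rose and 18 fell in exercised heterozygotes (median log2 fold change -0.23), where 5.34% of all genes rose and 3.48% fell. In exercised wild type 4 rose and 16 fell (median -0.09), where 4.64% of all genes rose and 5.05% fell. Atp5e of the ATP synthase had 93.9 ± 21.97 CPM in exercised heterozygotes and 172 ± 15.5 CPM with regular activity (SD, n = 5; -0.87, edgeR adjusted p = 1.13e-05). Among wild types it had 118 ± 4.04 CPM after exercise and 199 ± 22.9 CPM with regular activity (-0.75, edgeR adjusted p = 7e-05). Cox8a of complex IV fell by 0.84 in heterozygotes (edgeR adjusted p = 2.32e-05) and by 0.73 in wild type (0.000112). With age 1 rose and 15 fell in heterozygotes (median -0.27), where 1.46% of all genes rose and 1.96% fell, and 3 rose and 2 fell in wild type (-0.14), where 0.398% rose and 0.462% fell. The medians over all genes tested lay between -0.02 and 0.01 in these comparisons. Between genotypes 0 were called at 6 months with exercise, at 6 months with regular activity or at 3 months by edgeR's quasi-likelihood test, with medians of -0.19, -0.10 and 0.04.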

How the data were processed

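Total RNA of cardiac myocytes was sequenced from ribosome-depleted, strand-specific paired-end libraries, per the labels' protocols. The deposited file holds raw read counts per gene, which the authors made with Trim Galore, HISAT2 and featureCounts on mm10, per the submitters' processing notes. Versions, the annotation release, the strand setting and the treatment of multi-mapping reads are not given in the sources used here. Such settings decide how reads are divided between overlapping genes, strands and near-identical copies, and which reads are left uncounted. No spike-in row entered a library size or a test.

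All 30 libraries in 6 groups of 5 were fitted together with edgeR 4.0.16 in R 4.3.3 (filterByExpr, TMM scaling, robust quasi-likelihood F test, 24 residual degrees of freedom), with Benjamini-Hochberg adjustment over the 15587 of 52550 genes that passed the filter and a threshold of 0.05. The standard error is the absolute log2 fold change over the square root of F. CPM use TMM-scaled library sizes, and shares use all gene counts of a library with 95% Wilson intervals. Fold bounds use a floor of 3 counts over a group. Ratios within a library were tested by exact permutation with SciPy 1.17.1. Near-identical copies were sought with BLAST 2.17.0 (megablast, identity of at least 95% over at least 50 bases) in GENCODE M21 transcripts, which are on GRCm38, the assembly also called mm10. The fit was tested on simulated data. The comparisons share groups and are not independent of each other.

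The members and the gene lists were chosen with earlier results of these data known. All mt- genes could be named, with listed machinery genes that were called (up to 4 per comparison by smallest p), up to 2 nuclear subunits per comparison, and Dsp. Tfam was named after its values were seen. So were Esrra, Esrrg, Gtpbp3, Rrm2b, Polrmt, Lrpprc, Ppargc1a, Mtpap, Gabpa and Polg where a comparison did not place them among its 4. Alternatives were DESeq2 1.42.0 and its size factors, scaling without mitochondrial genes, no filter on low counts, a replicate block, fits on the compared groups only, leaving out each library, and, added after seeing the data, pairs of libraries left out and nuclear copies added.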

Additional observations from a re-analysis of the deposited data

Results flagged for a closer look

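In 38 of 198 groups of 5 libraries, the highest or the lowest library stood apart from the rest. The gap was more than 0.71 of the group's range, which chance gives in about 1 in 20 groups of normally distributed values. Levels and shares need not be so distributed, least of all tRNAs near the floor, so that rate need not apply here. Many of the 38 are the same library seen through several genes.

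Exercised wild type 1 stood above its group in total mitochondrial share (46.9%, with 20.8% to 25.9% in the other 4) and in mRNA share (39.2%). The same library stood apart for mt-Rnr1 (8256 CPM), mt-Tl1 (3.54 CPM), mt-Nd1 (61539 CPM), mt-Nd2 (20708 CPM), mt-Co1 (374345 CPM), mt-Co2 (3258 CPM), mt-Atp6 (2523 CPM), mt-Co3 (19573 CPM), mt-Nd3 (356.7 CPM), mt-Nd4l (110.003 CPM), mt-Nd4 (19424 CPM), mt-Nd5 (14283 CPM), mt-Nd6 (1519 CPM) and mt-Cytb (44026 CPM).

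Wild type 1 at 3 months stood above its group in total share (15.4%) and mRNA share (13.5%). It also did so for mt-Nd2 (4559 CPM), mt-Co1 (100186 CPM), mt-Nd4l (26.3 CPM), mt-Nd4 (5447.5 CPM), mt-Nd5 (4078 CPM), mt-Nd6 (279.1 CPM) and mt-Tl2 (0.209 CPM). Wild type 1 at 6 months with regular activity stood above its group for mt-Rnr2 (24042 CPM) and mt-Co2 (380.3 CPM).

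Heterozygote 5 at 6 months with regular activity had 36.5 counts of mt-Nd1 per 100 of mt-Rnr2, with 58.6 to 67.4 in the other 4. Nuclear rRNA took 0.511% of gene counts in that library, the most of its group. Exercised heterozygote 2 stood apart for mt-Nd4l (102 CPM), and heterozygote 2 at 3 months for mt-Co3 (2642 CPM, with 393 to 722 in the other 4).

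The remaining cases are tRNAs at low levels. They are mt-Tn in wild type 4 at 3 months (7.44 CPM), mt-Tg in wild type 3 at 3 months (2.92 CPM), mt-Ty in heterozygote 5 at 3 months (0.334 CPM), mt-Tk in wild type 5 at 6 months (0.678 CPM) and mt-Tr in exercised heterozygote 5 (0.0739 CPM). mt-Tl2 stood apart in heterozygote 4 at 6 months (0.608 CPM), wild type 2 at 6 months (0.348 CPM) and heterozygote 1 at 3 months (0.461 CPM).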

How the results depend on the processing

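Scaling without mitochondrial genes left every count of called members as it was, and DESeq2 size factors changed the count with exercise in heterozygotes alone, to 10. Without a filter on low counts 0 members were called between genotypes at 3 months and 5 with exercise in heterozygotes, where more genes enter the adjustment. Fits on the compared groups only, with fewer samples, called 0 at 3 months, 3 with age in wild type and 4 with age in heterozygotes. DESeq2's Wald test called 2 at 3 months, 1 between exercised genotypes, 1 in the genotype by exercise and 2 in the genotype by age interaction. Adding nuclear copies gave 16 calls with exercise in wild type. The cause of the DESeq2 differences was not tested.

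Same-numbered samples of the compared groups correlated from -0.252 to 0.154, so the numbers were not taken to pair the samples. A replicate block gave 0 calls at 3 months (mt-Tm 4.62, edgeR adjusted p = 0.197), 14 with exercise in wild type, 8 with exercise in heterozygotes, and 5 and 7 with age in wild type and heterozygotes.

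Leaving out heterozygotes 1 and 2 at 3 months gave 0 calls at 3 months, with mt-Tm at -0.20, and 4 with age in heterozygotes. Leaving out heterozygotes 3 and 5 at 6 months also gave 4 with age in heterozygotes. With 1 library left out at a time, counts ran from 0 to 2 between genotypes at 3 months, 0 to 1 between exercised genotypes and in the genotype by exercise interaction, 11 to 15 with exercise in wild type, 5 to 11 with exercise in heterozygotes, and 3 to 5 and 5 to 8 with age in wild type and heterozygotes. The difference in mitochondrial share between exercised genotypes ran from -1.08 to 5.77 points and was also below 0 without exercised wild type 4 (-0.19) or 5 (-0.74). Depth limits the tRNAs most: 11 of 22 had at most 81 counts over all libraries.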
